A study of Mus musculus with 6 samples.

Results

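The genes described here are the Hedgehog ligands Dhh, Shh and Ihh and 6 genes of the pathway they act on, Ptch1, Smo, Gli1, Gli2, Gli3 and Hhip. Every probe other than a control whose gene name on the array equals one of these names was taken. This gave 16 probes on 61 spots per array, of 41174 probes in all, and 15 of the 16 passed the background filter, at least 1 for each of the 9 genes. The set was chosen by a measured value, the ratio between the drugs, which is larger for Dhh than for any other gene of the series, so the ratios of the 9 genes are given as descriptions, without a p-value.

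Metanephric kidneys of CD1 mouse embryos at E13.5 were explanted onto filters and kept for 6 hours in Scriptaid or in Nullscript, both at 2 µg/ml. Scriptaid blocks histone deacetylases (HDACs), which take acetyl groups off histones and other proteins. Nullscript is its inactive control compound. Paired kidneys went to the different drugs, all kidneys being of the same strain, age and culture, and neither group carried a transgene or mutant allele according to the labels. RNA of both drugs was hybridised together to 2-colour Agilent arrays, with 3 biological replicates on 2 arrays each and the dyes exchanged between the 2 arrays. The arrays form 2 groups of 3, with Scriptaid labelled in Cy3 or in Cy5. The series' design text instead speaks of 4 arrays, 2 of them dye-swapped, and the labels of the 6 individual arrays were followed here. The labels do not say how many embryos went into each replicate. Whole explants were measured, so fewer cells of a type and less RNA per cell cannot be told apart.

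The direction of every ratio below follows the dye fields of the arrays, and that direction is not settled. Ratios are log2 of the Scriptaid-labelled over the Nullscript-labelled channel. H1f0 and H1f2 (named Hist1h1c on the array), linker histone genes that HDAC inhibitors are known to raise in other cells, had ratios of -1.0 ± 0.15 and -1.72 ± 0.06 (SD, n = 3), with -0.82 and -0.80 by the other H1f0 probes. Cdkn1a, the cell cycle inhibitor p21, also known to rise, had -0.91 ± 0.16. Ccnd1 and Myc, known to fall, had 1.90 ± 0.19 and 1.71 ± 0.28, Myc with 0.30 to 1.76 by other probes (limma adjusted p of 0.000429 or lower for all 5). These genes thus lie on the sides opposite to the labels, and the study's published account, as known from outside these files, also describes the opposite direction. Were the drug names the other way round, each sign below would turn. Between 91.5% and 96.5% of the spots per channel were well above background. Of 26500 genes tested, 12250 (46.2%) passed at a limma adjusted p under 0.05, 5961 (22.5%) of them higher in the Scriptaid-labelled channel and 6289 (23.7%) higher in the Nullscript-labelled channel.

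Hedgehog proteins are secreted signals that act at the primary cilium. A ligand binds the receptor Ptch1, which then stops holding back the membrane protein Smo, and Smo turns the Gli transcription factors towards activation of their targets. Gli1, Ptch1 and Hhip are themselves targets and serve as readouts of the pathway in many tissues. In the embryonic kidney, Shh from the ureter and the medullary collecting duct acts on the mesenchyme around it, which goes on to form smooth muscle. Dhh is best known from Sertoli cells of the testis and from Schwann cells of nerves, where it acts on the neighbouring mesenchyme.

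The promoter of Dhh is shown because Dhh carries the largest ratio, and that of Ihh because it belongs to a ligand whose ratio stayed near 0. Both are RefSeq sequences of build GRCm38.p6, 250 bases before to 50 after the start of the gene, at chr15:98898491-98898790 (minus strand) and chr1:74951623-74951922 (minus strand). Capitals mark the GC box GGGCGG on either strand.
Dhh: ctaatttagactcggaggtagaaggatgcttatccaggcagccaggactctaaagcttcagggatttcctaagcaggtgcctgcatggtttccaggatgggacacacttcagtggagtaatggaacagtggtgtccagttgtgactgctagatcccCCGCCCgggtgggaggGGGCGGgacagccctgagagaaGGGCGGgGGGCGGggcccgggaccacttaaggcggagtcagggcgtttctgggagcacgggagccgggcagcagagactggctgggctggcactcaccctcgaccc
Ihh: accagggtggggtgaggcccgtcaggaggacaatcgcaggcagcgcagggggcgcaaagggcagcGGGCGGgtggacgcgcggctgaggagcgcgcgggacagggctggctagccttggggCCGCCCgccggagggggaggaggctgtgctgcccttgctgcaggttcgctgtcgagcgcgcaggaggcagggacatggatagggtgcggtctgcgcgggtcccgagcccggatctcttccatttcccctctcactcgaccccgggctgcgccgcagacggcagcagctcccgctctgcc
The Dhh promoter held 4 GC boxes, 1 of them on the opposite strand, beginning at positions -94, -78, -56 and -49 from the start. At least as many were found in 5.49% of the 32851 promoters of that length in the table, and at least 1 in 35.7%. The Ihh promoter held 2. Of the 7 genes with a promoter in the table (Dhh, Ihh, Ptch1, Smo, Gli2, Gli3 and Hhip), 6 had a GC box and Smo had none. The Dhh promoter had 12 CpG pairs against 30 in that of Ihh and 47 in that of Ptch1, with a median of 7 over the table. The Gli consensus GACCACCCA, searched on both strands, was in none of the 7 and in 0.253% of all promoters. None of the 7 had TATAAA on either strand, which 13.6% of all promoters had. These matches describe letters only, and the motifs did not overlap one another in the 7 windows.

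Dhh was far lower in the Scriptaid-labelled channel than in the Nullscript-labelled channel. Its single probe, A_52_P232637, was well above background in both channels of all 6 arrays and saturated in none. The normalised log2 intensity was 7.92, 7.93 and 7.88 in the Scriptaid-labelled channel for replicates 1, 2 and 3, and 11.45, 11.13 and 11.27 in the Nullscript-labelled channel. The 2 drugs did not overlap, with SDs of 0.03 and 0.16. Dhh was chosen by this same difference, so the separation follows from the choice. The share of all genes without overlap was not counted, so nothing is read from a lack of overlap here or for the genes below.

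The Dhh ratio was -3.57, -3.14 and -3.42 where Scriptaid was labelled in Cy3 and -3.48, -3.25 and -3.36 where Scriptaid was labelled in Cy5. All 6 arrays pointed the same way, and the mean was -3.37 in either dye orientation. Averaged over replicates, the ratio was -3.37 ± 0.17 (SD, n = 3), which is 10.3-fold. Replicates 1 and 2 shared a slide and gave -3.36, and replicate 3, on the other slide, gave -3.39. The gene with the next largest ratio, Htra1, had -2.82. With the scanner software's processed signals in place of the mean signals the Dhh ratio was -3.76 ± 0.18 (SD, n = 3), and the next gene was Isl2 at -3.53.

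**Figure D1:**
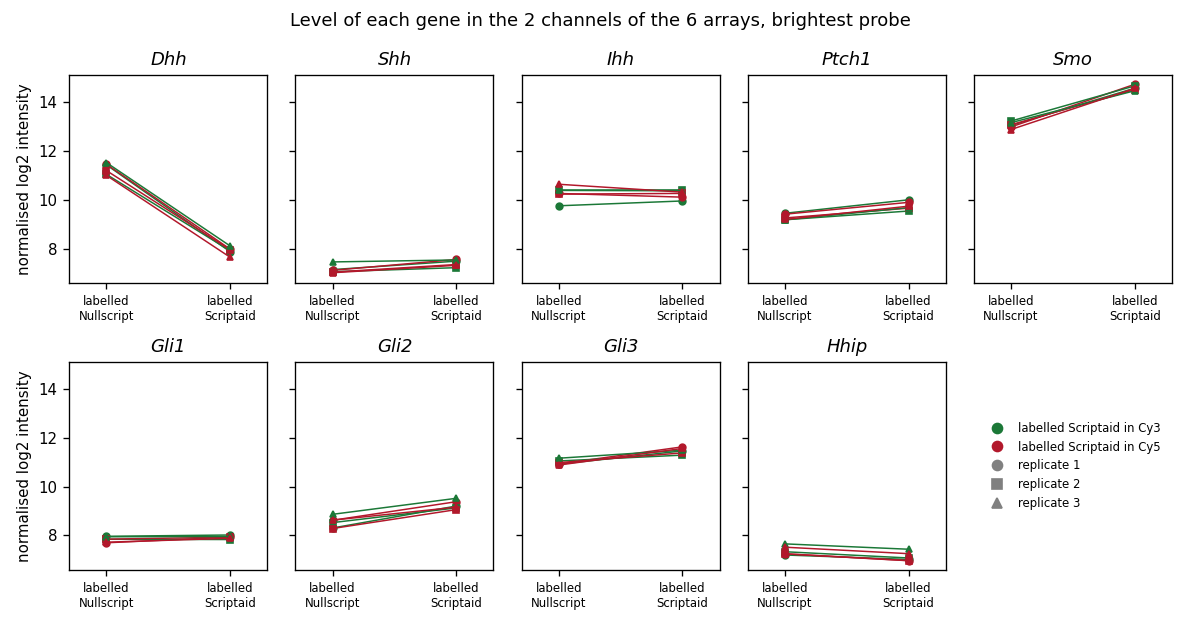
Normalised log2 intensity of the brightest probe of each of the 9 genes in the Nullscript-labelled channel (left) and the Scriptaid-labelled channel (right), with 1 line per array, coloured by dye orientation and marked by replicate. Dhh runs from between 11 and 12 down to about 8 on all 6 arrays, Smo rises from about 13 to between 14 and 15, and the other genes have flatter lines; heights of different genes come from different probes and cannot be compared.

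Shh, the ligand known to act in the developing ureter, was slightly higher in the Scriptaid-labelled channel. Its probe is spotted 10 times on each array, and the ratios were 0.35, 0.17 and 0.08 with Scriptaid labelled in Cy3 and 0.45, 0.31 and 0.31 with Scriptaid labelled in Cy5. All 10 spots were above 0 on every array, and the SD among the spots of an array lay between 0.02 and 0.09, below the spread between arrays. The mean was 0.28 ± 0.11 (SD, n = 3), or 1.21-fold, with log2 intensities of 7.41 ± 0.12 in the Scriptaid-labelled channel and 7.13 ± 0.09 in the Nullscript-labelled channel. The Shh intensities were 7.52, 7.28 and 7.42 in the Scriptaid-labelled channel and 7.12, 7.04 and 7.23 in the Nullscript-labelled channel, so the drugs did not overlap, though 7.28 and 7.23 differ by less than either SD. With processed signals the ratio was 0.46 ± 0.17.

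Ihh, the ligand best known from growing cartilage, showed no steady difference. Its brightest probe, also on 10 spots, had ratios of 0.20, 0.00 and -0.02 with Scriptaid labelled in Cy3 and -0.15, 0.03 and -0.32 with Scriptaid labelled in Cy5. All 10 spots were above 0 on the first array of replicate 1 and none on its dye-swapped partner. The signs thus differed between arrays that the labels give the same replicate number. The mean was -0.04 ± 0.11 (SD, n = 3) by this probe and 0.03 ± 0.04 by the other. Against -3.37 for Dhh and 0.28 for Shh, the 3 ligand genes therefore had ratios of different sign and size.

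**Figure D2:**
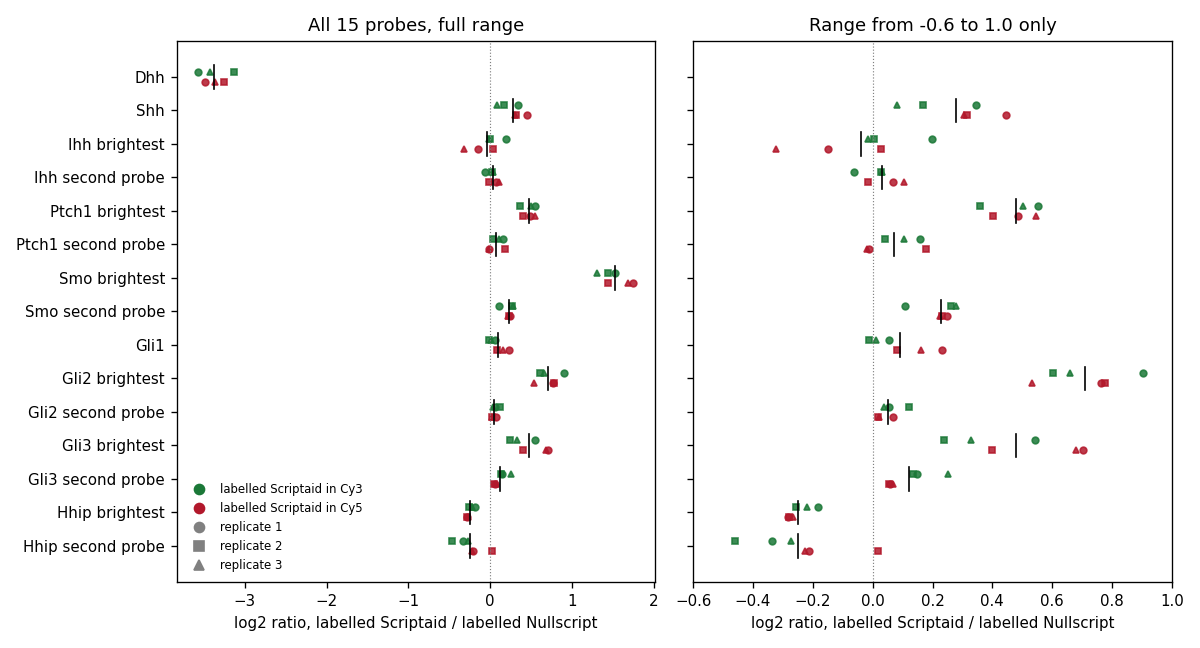
Log2 ratio of labelled Scriptaid over labelled Nullscript on each of the 6 arrays for the 15 probes that passed the background filter (left, full range; right, -0.6 to 1.0 only, where Dhh and the brightest Smo probe fall outside). Colours give the dye orientation, marks the replicate and black bars the mean of 3 replicates; Dhh lies between -3.57 and -3.14 and the brightest Smo probe between 1.31 and 1.75, while both Ihh probes straddle 0.

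Ptch1, the receptor that binds the ligands and is itself a target, was higher in the Scriptaid-labelled channel by its brightest probe. That probe had ratios of 0.55, 0.36 and 0.50 with Scriptaid labelled in Cy3 and 0.49, 0.40 and 0.55 with Scriptaid labelled in Cy5, all above 0. Its mean was 0.48 ± 0.08 (SD, n = 3), or 1.39-fold. The other Ptch1 probe, on 10 spots per array, had 0.07 ± 0.03, with 2 of 6 arrays just below 0. The brightest exceeded the other by 0.27 to 0.48 in the 3 replicates, so the size of the Ptch1 ratio depends on the probe.

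Smo, the membrane protein that passes the signal on, had the second largest ratio of the 9 genes, and its probes disagreed. By the brightest probe the ratios were 1.53, 1.44 and 1.31 with Scriptaid labelled in Cy3 and 1.75, 1.44 and 1.69 with Scriptaid labelled in Cy5. The log2 intensities were 14.67, 14.60 and 14.53 in the Scriptaid-labelled channel and 13.03, 13.16 and 13.03 in the Nullscript-labelled channel, with no overlap and no saturated array. The mean ratio was 1.53 ± 0.10 (SD, n = 3), or 2.88-fold. A second probe of the same RefSeq transcript had 0.23 ± 0.04, which is 1.17-fold. The difference between these probes was 1.30 ± 0.14 (SD, n = 3), and 1.25 ± 0.15 with processed signals. The remaining Smo probe was not well above background in either channel on any array and was not used. Both measured probes were above 0 on all 6 arrays, so the sign was shared and the size was not.

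The Gli genes encode the transcription factors at the end of the pathway, with Gli1 and Gli2 known mainly as activators and Gli3 mainly as a repressor. Gli1, the target most used as a readout, had ratios of 0.05, -0.01 and 0.01 with Scriptaid labelled in Cy3 and 0.23, 0.08 and 0.16 with Scriptaid labelled in Cy5. Its mean over 10 spots per array was 0.09 ± 0.05 (SD, n = 3), or 1.06-fold. On the first 3 arrays the spots fell on both sides of 0, with 4 to 6 of 10 above it, and on the other 3 all 10 were above it.

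Gli2 was higher in the Scriptaid-labelled channel by its brightest probe, with 0.90, 0.60 and 0.66 where Scriptaid was labelled in Cy3 and 0.76, 0.78 and 0.53 on the others. The mean was 0.71 ± 0.12 (SD, n = 3), or 1.63-fold, and the log2 intensities of 9.24 ± 0.13 and 8.54 ± 0.18 did not overlap between the drugs. The other Gli2 probe, of the same predicted transcript, had 0.05 ± 0.02, and -0.03 when arrays were centred on their medians instead of by loess. Gli2 thus repeats the pattern of Ptch1 and Smo, in which the second probe was nearer to 0.

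Gli3 had 0.54, 0.24 and 0.33 with Scriptaid labelled in Cy3 and 0.70, 0.40 and 0.68 with Scriptaid labelled in Cy5 by its brightest probe, which the array names Gli3 although its cDNA clone is described as unclassifiable. The mean was 0.48 ± 0.15 (SD, n = 3), or 1.40-fold. The probe of the RefSeq transcript, on 10 spots, had 0.12 ± 0.04, and -0.11 with median centring. This dim probe was well above background with Nullscript on 5 of 6 arrays. A constant of 50 is added to every signal in the background correction, and with a constant of 10 the ratio was 0.23. With processed signals this probe had 0.43 ± 0.11 against 0.45 for the brightest. The gap between the Gli3 probes was then 0.02 ± 0.18 in place of 0.36 ± 0.15, whereas for Ptch1 and Gli2 it was 0.41 ± 0.11 and 0.82 ± 0.08.

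**Figure D3:**
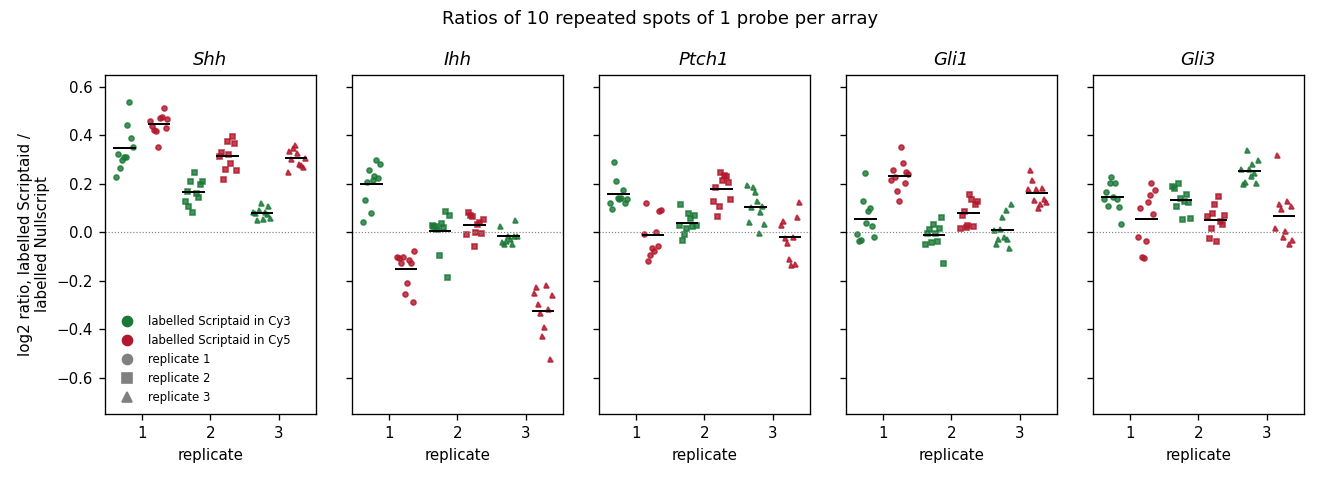
Log2 ratio of labelled Scriptaid over labelled Nullscript for each of the 10 spots of 1 probe on the 6 arrays, for Shh, Ihh, Ptch1 (its other probe), Gli1 and Gli3 (its RefSeq probe). Colours give the dye orientation, marks the replicate and black bars the mean of the spots; all Shh spots lie above 0, and Ihh moves from 0.20 to -0.15 between the 2 arrays of replicate 1.

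Hhip, a membrane protein that captures Hedgehog ligands and is induced by the pathway, was lower in the Scriptaid-labelled channel, the side of Dhh. Its brightest probe had -0.18, -0.26 and -0.22 with Scriptaid labelled in Cy3 and -0.28, -0.28 and -0.27 with Scriptaid labelled in Cy5. The mean was -0.25 ± 0.02 (SD, n = 3), or 1.19-fold. The other probe had -0.25 ± 0.03, with 1 of 6 arrays at 0.02, and was well above background with Scriptaid on 5 of 6 arrays. The intensities of the brightest probe, 7.12 ± 0.20 and 7.36 ± 0.19, overlapped between the drugs across replicates. Both probes are dim, and with processed signals their ratios were -0.43 ± 0.08 and -0.69 ± 0.14. The targets Ptch1, Gli1 and Hhip therefore did not share a sign and size, at 0.48, 0.09 and -0.25 by their brightest probes.

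By the brightest probe of each gene, 7 of the 9 genes passed in the fit over all genes (background 46.2%), 5 with higher values in the Scriptaid-labelled channel and 2, Dhh and Hhip, in the Nullscript-labelled channel. Ihh and Gli1 did not pass. Of the 15 probes 10 passed, beside 45.2% of all probes. This contrast chose the set, so nothing is read from these counts. The median ratio of the 9 genes was 0.28, beside -0.01 over all genes tested. Of the 15 probes, 14 had the same sign in all 3 unrounded replicate ratios, the exception being the brightest Ihh probe. The share over all probes was not counted, so nothing is read from this number either.

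**Figure D4:**
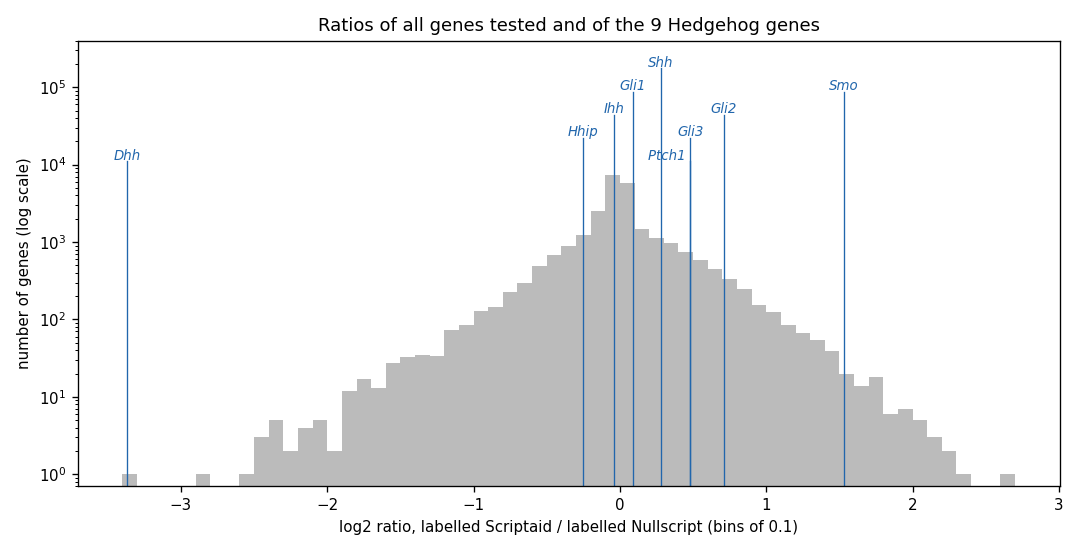
Number of genes (log scale) by log2 ratio of labelled Scriptaid over labelled Nullscript in bins of 0.1, for all 26500 genes tested, with lines at the 9 Hedgehog genes by their brightest probe. Dhh at -3.37 stands at the left end, Smo at 1.53 lies in the right tail, and the remaining 7 lie between -0.25 and 0.71.

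The dye swap gives a measure that played no part in choosing the genes, namely whether a ratio depended on which dye carried which drug. Of the 15 probes, none showed a dye effect (limma on 6 arrays with replicate as a block, lowest adjusted p = 0.193). Over all probes, 3.82% had an adjusted p under 0.05. Without adjustment 2 of the 15 had a p under 0.05, and the share over all probes was not counted at that threshold. The Dhh effect was 0.00 (adjusted p = 0.975). The largest were for Ihh, at -0.11 (adjusted p = 0.251), and for Gli3 and the dimmer Hhip probe, each at 0.11 (adjusted p = 0.237 and 0.193). These values are differences between the mean of the arrays with Scriptaid in Cy5 and the mean of all 6.

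A further 51 genes of the pathway, listed by function, were all measured. In the fit over all genes 25 were higher in the Scriptaid-labelled channel and 13 in the Nullscript-labelled channel, and 13 did not pass, beside 22.5% and 23.7% of all genes. Their median ratio was 0.08, against -0.01 for all genes.

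For the release of ligands, 2 of 8 genes were higher in the Scriptaid-labelled channel and 3 in the other. Scube1, a secreted protein that helps carry lipid-modified ligands, had -1.06 ± 0.04 (SD, n = 3, limma adjusted p = 0.000125), with -0.30 and -0.02 by other probes. Disp1, which releases ligands from the cell that makes them, had 0.13 ± 0.01 (adjusted p = 0.0152), and Hhat, which attaches their palmitate, had -0.12 ± 0.08 and did not pass (adjusted p = 0.0641).

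Among the coreceptors, 2 of 4 were higher in the Scriptaid-labelled channel and 2 in the other. Gas1 and Boc, surface proteins that help ligands bind Ptch1, had 1.12 ± 0.25 (SD, n = 3, limma adjusted p = 0.000741) and 0.84 ± 0.07 (adjusted p = 0.000176), Boc with -0.15 and 0.01 by other probes. Cdon, a relative of Boc, went the other way at -0.22 ± 0.10 (adjusted p = 0.0146). The coreceptors thus did not move together.

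Of 18 genes that act in the cilium and cytoplasm, 11 were higher in the Scriptaid-labelled channel and 4 in the other. Evc and Evc2, partners of Smo at the cilium base, had 0.85 ± 0.17 and 0.85 ± 0.08 (SD, n = 3, limma adjusted p = 0.000596 and 0.000195), with -0.08 to 0.12 by their other probes. Grk2, the kinase of activated Smo (named Adrbk1 on the array), had 0.69 ± 0.06 (adjusted p = 0.000207) and 0.56 and 0.86 by other probes. Spopl, a relative of the Gli degradation adaptor Spop, had 0.53 ± 0.08 (adjusted p = 0.000552) and 0.12 by its other probe, with 0.33 as the mean over probes. Prkaca, the catalytic subunit of the kinase that keeps Gli proteins in check, had -0.70 ± 0.01 (adjusted p = 0.000148). Sufu, which binds and restrains Gli proteins, had -0.10 ± 0.07 and did not pass (adjusted p = 0.0837).

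Of 21 genes known as Hedgehog targets in kidney or other tissues, 10 were higher in the Scriptaid-labelled channel and 4 in the other, and 7 did not pass. The 4 include Igf2 at -0.48 ± 0.17, whose probe was saturated with Scriptaid on 6 arrays and with Nullscript on 5. Its ratio is therefore unreliable. Ccnd1, cyclin D1, is given above, and Mycn had 1.11 ± 0.04 (SD, n = 3, limma adjusted p = 0.000125) with 0.61 by its other probe. The transcription factor gene Prdm1 had 0.76 ± 0.22 (adjusted p = 0.00176) and the survival gene Bcl2 0.70 ± 0.02 (adjusted p = 0.000152), with 0.40 and 0.42 by other probes. The Notch ligand gene Jag2 had -1.40 ± 0.10 and the Wnt antagonist gene Sfrp1 -1.04 ± 0.06 (adjusted p = 0.000137 for both), Sfrp1 with -0.71 by its other probe. Bmp4 and Myocd, of the ureter mesenchyme and its smooth muscle, had 0.00 ± 0.14 and 0.02 ± 0.05 and did not pass. Tbx18, also of the ureter mesenchyme, had 0.66 ± 0.10 (adjusted p = 0.000411), with 0.68 by its other probe. Many signals besides Hedgehog act on these targets, and they went both ways.

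**Figure D5:**
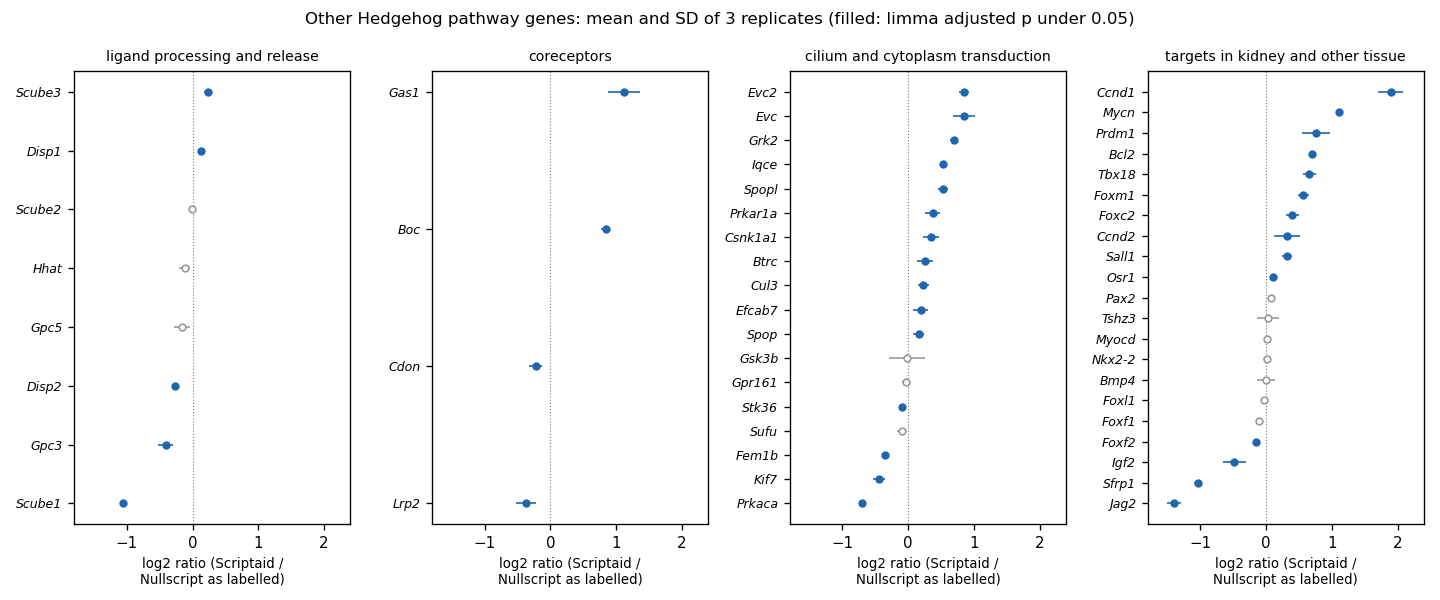
Log2 ratio of labelled Scriptaid over labelled Nullscript for the 51 other pathway genes by role, brightest probe, as the mean of 3 replicates with bars of 1 SD; filled points passed at a limma adjusted p under 0.05. Ccnd1 at 1.90 and Jag2 at -1.40 are the outermost, and each of the 4 roles has genes on both sides of 0.

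Markers of the fetal gonad, of Schwann and neural crest cells and of endothelium were read beside the Dhh ratio. The gonad list also holds genes of gonad cells other than Sertoli cells, Insl3 and Star among them. Over all genes, 22.5% were higher in the Scriptaid-labelled channel and 23.7% in the Nullscript-labelled channel. Of 9 Sertoli and fetal gonad genes, none was higher in the Scriptaid-labelled channel and 2 were higher in the Nullscript-labelled channel, with a summed intensity of 7380 to 9450 in the former and 8410 to 9310 in the latter over the 3 replicates. The 2 were Insl3 at -0.30 ± 0.08 and Star at -0.17 ± 0.02 (SD, n = 3), Star with -0.54 by its other probe. Amh, the Sertoli hormone, had -0.01 ± 0.04 and did not pass. Of 6 Schwann and neural crest genes, 2 were higher in the Scriptaid-labelled channel and 1 in the other, with sums of 6850 to 7390 and 6220 to 6820. Fabp7 and Erbb3 had 0.54 ± 0.17 and 0.12 ± 0.05, Erbb3 with -0.02 to 0.01 by other probes, and Foxd3 had -0.17 ± 0.05. Sox10, which defines these cells, had -0.03 ± 0.05 and did not pass. Amh and Sox10 were chosen after their values were seen, and the other genes just given are those that passed. Each sum adds unlogged intensities, so the brightest genes of a list weigh most in it. The brightest were Sox9 in the gonad list and Erbb3 in the Schwann list, with mean log2 intensities of 12.06 and 11.61 over both channels. Of 6 endothelial genes, 5 were higher in the Scriptaid-labelled channel by their brightest probes and none in the other, the side opposite to Dhh. The sums were 20600 to 21300 and 12000 to 14100, and Emcn led at 1.02 ± 0.24 (limma adjusted p = 0.000947). Pecam1, Kdr and Sox17 had 0.66, 0.26 and 0.40 by the brightest probe, but 0, 0.03 and -0.06 to 0.26 by others. Cdh5 had 0.95 and 0.80. Tek, which did not pass, had 0.03 and 0.48 by its other probe. Every gene of these lists was well above background on all arrays except Dmrt1, which was so on 4 arrays with Scriptaid and 5 with Nullscript.

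Of the kidney's own markers, all 7 nephron progenitor and all 5 stromal genes were higher in the Scriptaid-labelled channel by their brightest probes, beside 22.5% of all genes. The sums were 45100 to 50400 and 22400 to 23100 for the former list and 45600 to 52000 and 24500 to 27700 for the latter. Sizes varied with gene and probe: Osr1 had 0.10 ± 0.01, with 0.83 by its other probe, and Pdgfra 0.86 ± 0.17, with 0.12 by its other probe. Ureteric bud genes had 4 of 6 on that side, with sums of 44200 to 49000 and 34900 to 37300. All lists of the kidney were detected, as the label states for the tissue. The ureter smooth muscle list had 1 of 6 genes higher in the Scriptaid-labelled channel, Tbx18, which is also counted among the Hedgehog targets above. The 2 higher in the other were Cnn1 at -0.62 ± 0.13 and Myh11 at -0.14 ± 0.05. Urothelial genes, of the tissue that makes Shh, had none higher in the Scriptaid-labelled channel and 3 of 6 in the other. The part of these cell types in the Hedgehog ratios was not tested.

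The genes whose 6 array ratios lay nearest to those of Dhh were Htra1, Plk5, Ccdc184, Isl2 and Kif5a, with root mean square differences of 0.57, 0.82, 0.88, 0.89 and 0.98. Their mean ratios were -2.82 ± 0.28, -2.56 ± 0.16, -2.50 ± 0.23, -2.49 ± 0.12 and -2.41 ± 0.02 (SD, n = 3), Kif5a with -0.39 by its other probe. Htra1 is a secreted protease, Isl2 a homeobox factor of motor neurons and Kif5a a neuronal motor protein. The likeness says only that all are far lower in the Scriptaid-labelled channel.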

How the data were processed

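The arrays were read with Agilent Feature Extraction 9.1.3.1, per the file headers, and the deposited scanner files give spot and local background intensities, software-processed intensities and a log10 ratio of Cy5 over Cy3. The authors' series value table holds the same log10 ratios, turned to Scriptaid over Nullscript as labelled (largest difference 4.82e-06), so the scale, centring and direction by the dye fields are known; its column medians were -0.00959 to -0.00136.

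Mean intensities were corrected with normexp (offset 50) and normalised by loess in limma 3.58.1 (R 4.3.3). Control spots had weight 0, outlier spots were left out and spots of a probe averaged. Levels per channel were scaled further by Aquantile. Both arrays that the labels give the same replicate number were averaged, giving n = 3. Their deviations from the group means correlated at 0.61, 0.13 and 0.01 in replicates 1, 2 and 3. A probe was kept if its signal with 1 of the drugs was well above background on 3 or more arrays, which left 39407. A gene outside the set was named by accession (22951 probes), symbol (6659) or older symbol (3109) in the RefSeq table, or by its array name (8455), and represented by its brightest probe. lmFit and eBayes tested the mean against 0, with Benjamini-Hochberg adjustment. The script was tested on simulated data.

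The Hedgehog genes, lists and tests were chosen with earlier results of these data known. Named genes are the 9 members. They also include pathway genes that passed with an absolute ratio of at least 0.5 (at most 4 per role and direction), markers that passed with at least 1 (at most 2 per list), the 5 genes nearest to Dhh and 5 genes that check direction. Disp1, Hhat, Cdon, Sufu, Bmp4, Myocd, Tbx18 and Igf2 were added after their values were seen. So were the genes named from the gonad and Schwann lists and the markers named with an absolute ratio under 1. A listed item is not reported here. Marker lists covered nephron progenitors, ureteric bud, stroma, ureter smooth muscle, urothelium, endothelium, fetal gonad, germ cells, Schwann cells, neurons, notochord and floor plate, cartilage and macrophages. Alternatives changed the background correction, normalisation, filter, slide, dye orientation, probe rule and replicates, and an offset of 10 was added after the data were seen. Histone genes have near-identical copies that a probe can share.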

Additional observations from a re-analysis of the deposited data

How the results depend on the processing

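Dhh kept the largest ratio of all genes and its sign under all 15 alternatives. Dhh was chosen for this ratio in these same arrays, so this was likely beforehand. The filter changes, the replicate block and the mean over probes cannot change the ratio of a gene with 1 probe. The series value table repeats the processed signals. The Dhh ratio was -3.76 with processed signals and with the series value table, and -3.62 with an offset of 10. It lay between -3.46 and -3.29 without each replicate in turn. Of 217 comparisons of a Hedgehog probe with its alternative value, 174 moved by no more than 1 SD. The filter changes and the replicate block leave the ratio of a probe as it is. The 174 therefore include comparisons fixed beforehand, and their share is not read as a measure of robustness. Among probes whose ratio exceeded its SD, the sign turned in 2, both with median centring: the second Gli2 probe to -0.03 and the RefSeq probe of Gli3 to -0.11. The Ihh ratios, smaller than their SD, also changed sign. The brightest Ihh probe had 0.06 with the Scriptaid in Cy3 arrays alone, 0.02 with median centring and 0.02 without replicate 3, and the other had -0.11 with median centring. With the mean over all probes, Smo had 0.88, Gli2 0.38, Gli3 0.30 and Ptch1 0.28. The number of Hedgehog probes with a dye effect was 0 with processed signals, without the block and without each replicate, but 8 of 15 with median centring. Under that centring 61.3% of all probes showed a dye effect, and the cause was not tested. The dye effects of the dimmer Ihh and Hhip probes then had the opposite sign, at -0.18 and -0.28. Over all genes, 4330 to 5697 were higher in the Scriptaid-labelled channel and 4002 to 5699 in the other without each replicate, the lowest in both without replicate 3. Among the other pathway genes the counts ran from 19 to 25 and from 9 to 15. With the 6 arrays kept apart and the replicate as a block, the counts were 6326 and 6630 over all genes and 24 and 15 in the pathway, the Dhh ratio was -3.37, and the block changed no call among the 31 pathway, marker, Dhh-like and direction genes that the naming rule chose. Those 31 passed with the same sign under all 15 alternatives. The pathway, marker and Dhh-like genes among them were chosen by their large ratios in these same arrays, so this was likely beforehand. The share among all genes that passed was not counted. Genes named after their values were seen were not followed singly. The filter for both channels on all arrays dropped the RefSeq Gli3 probe and the dimmer Hhip probe, so it gave no value for them. The sizes for Dhh, Shh, Hhip, the second Smo probe and the RefSeq Gli3 probe depend on the added constant. Their ratios moved by over 1 SD with an offset of 10, and the cause was not tested.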

Other observations

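Other marker lists were read for the same arrays, beside 22.5% of all genes higher in the Scriptaid-labelled channel and 23.7% in the Nullscript-labelled channel. Of 5 neuronal genes, 4 were higher in the Nullscript-labelled channel and 1 in the Scriptaid-labelled channel, with a median ratio of -0.74. Nefm, a neurofilament gene, had -1.33 ± 0.18 (SD, n = 3, limma adjusted p = 0.000244), its other probe -0.14. Elavl4, which encodes an RNA-binding protein of neurons, had 1.29 ± 0.14 (adjusted p = 0.000178), its other probe 0.71. The summed intensity of the neuronal list was 5300 to 5900 in the Scriptaid-labelled channel and 5170 to 6370 in the other, so the sums overlapped.

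In the notochord and floor plate list, tissues that Shh patterns or that make it, 2 of 4 genes were higher in the Nullscript-labelled channel. Foxj1, the master gene of motile cilia, had -1.54 ± 0.12 (SD, n = 3, limma adjusted p = 0.000137), and its ratio lay between -1.81 and -1.49 over all alternatives. Of 4 germ cell genes measured, 1 was higher in the Nullscript-labelled channel, of 4 cartilage genes 1 in the Scriptaid-labelled channel, and of 4 macrophage genes 2 in the Nullscript-labelled channel, with no call in the other direction in these 3 lists.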
